A study of Cardamine hirsuta with 6 samples.

Results

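*CAD-5* (CARHR242560) and *UGT72E2* (CARHR281030) are the *Cardamine hirsuta* matches of *Arabidopsis thaliana* AT4G34230 and AT5G66690, a pair of genes that act on the monolignols, the alcohol units from which lignin is built. They are 2 of the 1876 genes named beside the DAP-seq peaks whose annotation was held. Both were selected on measured values of these and related data. Each has a reproducible DAP-seq peak, which for *CAD-5* is among the strongest, and each is on the study's list of high-confidence targets, which required a DAP-seq peak, a ChIP-seq peak and a changed expression after *ChCUC1:V* induction at more than 1 of the times sampled. The enrichment values at the genes are therefore given as a description, with no test. In the expression lists of induced shoot apices, *UGT72E2* stands as higher at 2 and 4 h and *CAD-5* as lower at 2 h. No entry for either gene at another hour was found in the lists as held. The list for 8 h was held in part, so a further time for *CAD-5* was not seen, and the expression data were not analysed here.

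DNA affinity purification sequencing (DAP-seq) measures where a tagged transcription factor binds naked genomic DNA in vitro. There were 3 ChCUC1 samples, in which ChCUC1 with an N-terminal HaloTag was made in a wheat germ translation system, and 3 Halo control samples, in which by their labels the tag was used without ChCUC1. All used genomic DNA of the *C. hirsuta* Oxford genotype, taken by protocol from rosette leaves of plants aged 4 weeks, whereas the tissue label reads seedlings. Bound fragments were recovered on Magne HaloTag beads in both groups. The DNA carries no chromatin, so the assay reads affinity for DNA and not binding in a leaf cell.

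Lignin stiffens and waterproofs the walls of vessel elements, fibres and the root endodermis. Its monolignols are made from phenylalanine along the phenylpropanoid pathway, and in *A. thaliana* CAD5, a cinnamyl alcohol dehydrogenase, acts with CAD4 in the final step, the reduction of cinnamaldehydes to the alcohols. UGT72E2 of *A. thaliana* attaches glucose to coniferyl and sinapyl alcohol, which gives soluble glucosides such as coniferin, and beta-glucosidases can release the alcohols again. ChCUC1 is a NAC transcription factor that marks organ boundaries and leaflet initiation sites.

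A total of 4 deposited peak lists was used. The reproducible list, selected by the irreproducible discovery rate, holds 2432 peaks. For each of the 3 other lists, peaks of 1 ChCUC1 library were called with the Halo controls pooled as background. The whole-library list has 4778 peaks and uses all reads left after removal of duplicates. The longer and the shorter pseudoreplicate lists, with 3753 and 3253 peaks, each use a random subset of the reads of a library. By their names, the shorter pseudoreplicate list and the whole-library list share a sequencing run, and the longer one is from another. Fold enrichment is the signal at the summit of a peak, its highest point, divided by that of the Halo control. The depth of the libraries is unknown, and the genes' ranks within a list are given beside the enrichment.

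*CAD-5* held 1 of the strongest peaks of the experiment. The reproducible peak lay on chromosome 7 from 21424740 to 21425347, a width of 608 bp, with its summit at 21425095. It fell in exon 4 of 5, and its centre was 1216 bp downstream of the annotated gene start. The fold enrichment was 9.06, with a −log10 p of 433, and it ranked 4 among all 2432 reproducible peaks by fold enrichment and 4 by p-value. The peaks at the adjacent ranks, at CARHR147870 and CARHR273640, had fold enrichments of 9.29 and 8.95. On chromosome 7, the *CAD-5* peak ranked 1 of 296. Annotation was held for 1997 of the 2432 peaks, those with a −log10 p of at least 26.4, so every class of peaks by annotation lacks the 435 peaks with the weakest p-values. Among the 671 held peaks annotated to an exon it ranked 2, and among the 379 of these in a second or later exon it ranked 1, against a median of 3.43 in that class.

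The reproducible and the single-library lists share libraries, and a call in each list was part of how *CAD-5* was chosen. Its single-library values are thus given as a description. In the whole-library list its fold enrichment was 8.81, and the longer and the shorter pseudoreplicate lists had 8.0 and 7.97. These were 3.72, 3.16 and 3.03 times the median of the respective list. They ranked 6 of 4778, 9 of 3753 and 19 of 3253, so the peak was in the top 0.584% of each list. The −log10 p fell from 151 in the whole-library list to 96.6 and 41.5 in the longer and the shorter pseudoreplicate lists.

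*UGT72E2* held a peak of intermediate strength. It lay on chromosome 8 from 20396710 to 20397171, a width of 462 bp, with its summit at 20396947. The annotation gives *UGT72E2* a single exon, and the peak was in it. Gene start and strand were worked out from the distances in the annotation of the DAP-seq and the ChIP-seq peak, which place the start at 20397346 on the minus strand. The DAP-seq summit was thus 399 bp downstream of the start, and the peak spanned the part of the gene from 175 to 636 bp. The ChIP-seq peak listed for the gene lies further from the start and does not overlap the DAP-seq peak. For *CAD-5* the single annotated row held was that of the DAP-seq peak, so its strand was not worked out. A ChIP-seq peak assigned to *CAD-5*, which the target list required, was thus not seen in the annotation held.

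The fold enrichment at *UGT72E2* was 3.72 in the reproducible list, with a −log10 p of 70.5. It ranked 721 by fold enrichment and 791 by p-value, above the median fold enrichment of 3.04 over all reproducible peaks. Neighbours in rank, at CARHR139620 and CARHR030350, had 3.72 as well. The peak ranked 102 of 315 on chromosome 8 and 66 of 178 among held peaks in single-exon genes, a class without the weakest peaks, which had a median fold enrichment of 3.27 and a median distance of 580 bp from the gene start.

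The whole-library list had a fold enrichment of 3.73 at *UGT72E2*, and the longer and the shorter pseudoreplicate lists had 3.02 and 2.84. The peak ranked 750, 1207 and 1290 in them, or in the top 15.7%, 32.2% and 39.7%. The −log10 p was 26.6, 13.2 and 5.96, and the −log10 q of the weakest call was 2.74. Within each list the value was above the median, but in the shorter pseudoreplicate list only by 1.08 times.

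**Figure D1:**
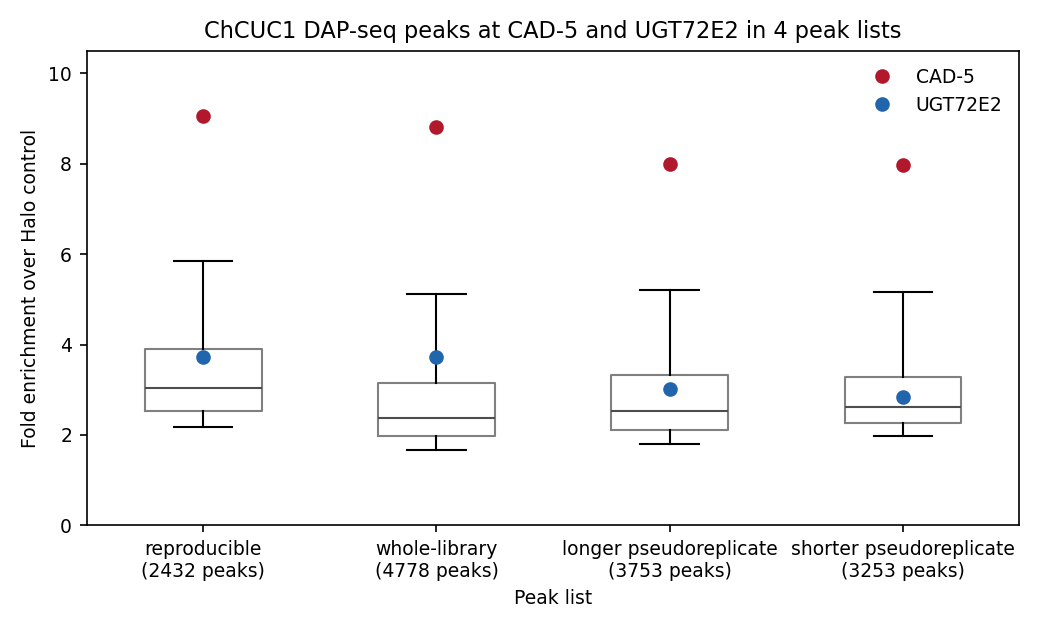
Fold enrichment over the Halo control (vertical axis) at CAD-5 (red) and UGT72E2 (blue) in each of the 4 peak lists; boxes show the quartiles and median of all peaks of a list and whiskers the 5th and 95th percentiles. CAD-5 lies between 7.97 and 9.06, above every whisker, and UGT72E2 between 2.84 and 3.73, above every median.

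**Figure D2:**
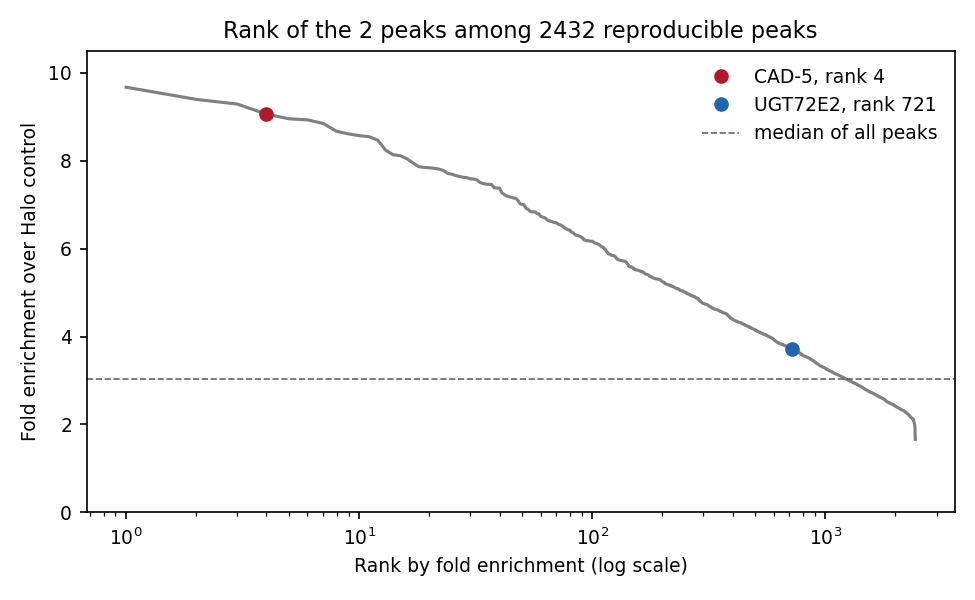
All 2432 reproducible peaks (grey line) ordered by fold enrichment over the Halo control, with rank on a log axis and the dashed line at the median of 3.04. CAD-5 has rank 4 and UGT72E2 rank 721.

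The values of the genes did not overlap, and their order was the same in each list. The fold enrichment at *CAD-5* was 2.36 times that at *UGT72E2* in the whole-library list, 2.65 times in the longer and 2.80 times in the shorter pseudoreplicate list. The reproducible list gave 2.43 times. The libraries share the Halo control, and the reproducible list shares libraries with the others. The genes were chosen with these ranks known, so no test was made and nothing is read from the constant order.

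Between lists, the enrichment at *UGT72E2* differed by larger ratios than that at *CAD-5*, which was not tested. For *CAD-5*, the whole-library value was 1.10 times that of the longer pseudoreplicate list and 1.11 times that of the shorter. The medians of these ratios over the 1519 reproducible peaks called in all 3 lists were 1.04 and 1.08. For *UGT72E2*, the ratios were 1.23 and 1.31, higher than at 88.2% and 85.5% of these peaks, but inside the range from the 5th to the 95th percentile (0.823 to 1.32 and 0.792 to 1.47). The larger of these gaps was between lists of the same sequencing run. Between the pseudoreplicate lists, which come from different runs, the ratios were 1.004 at *CAD-5* and 1.06 at *UGT72E2*. Library, run, depth and the use of all reads or a subset cannot be told apart in these lists, and no cause was tested.

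Both peaks were called in each of the 3 single-library lists, which was part of how the genes were chosen, so nothing is read from it. The share over all reproducible peaks was 62.5%. Peaks of like rank were called in each list more often than peaks as a whole. Of the 104 reproducible peaks down to 100 ranks below *CAD-5*, all 104 were called in each list, and of the 201 within 100 ranks of *UGT72E2*, 183 were, or 91.0%. Both genes were also called in each list with summits within 100 bp instead of any overlap, where the share over all peaks was 58.2%, and in the 50% of each list with the highest fold enrichment, where it was 47.5%. These shares were not computed for peaks of like rank, and the outcome in the top 50% follows from the ranks given above. Nothing is read from these calls either. At an overlap of 50% of both peaks, each gene was called in 2 of the 3 lists, and 14.6% of all peaks in all 3. The list lost was the shorter pseudoreplicate list, whose calls covered 45.7% of the reproducible peak at *CAD-5* and 44.6% at *UGT72E2*. The median coverage by that list over the 1519 peaks was 42.0%.

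The summits of the 4 lists lay close together at both genes. At *CAD-5*, the summits in the whole-library, longer and shorter lists were 2, 9 and 15 bp from the reproducible summit, and all 4 summits fell within 17 bp. At *UGT72E2*, the distances were 2, 17 and 14 bp, and the summits fell within 31 bp. Over the 1519 peaks called in each list, the medians of these distances were 5, 8 and 12 bp. The offsets at both genes were thus below the median in the whole-library list and above it in the pseudoreplicate lists, and all were below the 90th percentiles of 16, 28 and 49.2 bp. The stretch covered by every call ran from 21424958 to 21425235 at *CAD-5*, or 278 bp, and from 20396821 to 20397026 at *UGT72E2*, or 206 bp. In both cases these are the limits of the call in the shorter pseudoreplicate list.

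The *CAD-5* peak was broad for each list, with 527, 723 and 278 bp in the whole-library, longer and shorter lists, and it was wider than 87.1 to 88.1% of the peaks in them. *UGT72E2* had 440, 597 and 206 bp, wider than 53.9 to 56.4%. In the reproducible list, *CAD-5* was wider than 81.8% of peaks and *UGT72E2* than 30.1%.

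**Figure D3:**
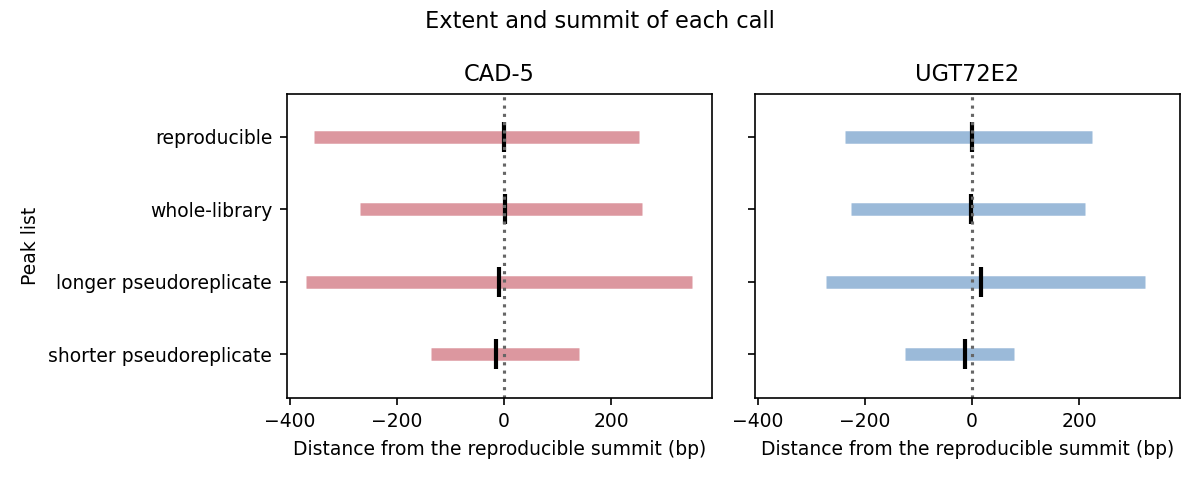
Extent (coloured bars) and summit (black ticks) of the call at CAD-5 (left) and UGT72E2 (right) in each of the 4 peak lists, as distance in bp from the summit in the reproducible list (dotted line). All summits lie within 17 bp of it, and the calls in the shorter pseudoreplicate list are the narrowest.

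The surroundings of the genes differed in other peaks. No other reproducible peak lay within 30 kb of the *CAD-5* summit. Its nearest neighbours were at CARHR242390, 60.1 kb towards lower coordinates with a fold enrichment of 3.33, and at CARHR242760, 60.7 kb towards higher ones with 5.70. Over the 2331 reproducible peaks on chromosomes, the median distance to the nearest other peak was 15.3 kb. Each single-library list had 1 other call within 30 kb of *CAD-5*, at a different place in each, with fold enrichments of 2.09, 2.10 and 2.43.

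On the side of lower coordinates, the nearest reproducible peak to *UGT72E2* was at CARHR280910, 46.8 kb away with 2.78. Within 30 kb there were 2 others, both towards higher coordinates. One lay 13.2 kb away with a fold enrichment of 2.18 and has no annotation row among those held. The other lay 21.6 kb away at the transcript end of CARHR281070, the match of AT5G66650, with a fold enrichment of 5.59 and rank 146, and so was stronger than the *UGT72E2* peak. In the single libraries it had 5.54, 5.27 and 5.14. A further call 13.9 kb away in the whole-library list, with a fold enrichment of 1.98, overlapped one of 2.13 in the longer pseudoreplicate list but no reproducible peak. The longer list also had a call of 1.62, 16.0 kb towards lower coordinates. The shorter list had one of 2.17, 25.4 kb towards higher coordinates. Neither overlapped a reproducible peak.

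To place both genes in their pathway, the DAP-seq annotation was searched for 52 *A. thaliana* genes of lignin formation, *CAD-5* and *UGT72E2* included. A reproducible peak was found for 11 of them, each with 1 peak, and 41 had none in the held annotation. This is a minimum, since 560 of the 1997 held rows name no *A. thaliana* match and the 435 rows of the weakest peaks were not used here. The share of all *C. hirsuta* genes with a peak was not computed, so no enrichment of the pathway is shown. For the same reason, the counts by group of genes given below cannot be called high or low. The median fold enrichment of the 11 peaks was 4.07, also without *CAD-5* and *UGT72E2*, against 3.28 over the 1997 peaks with a held annotation row. Lignin genes were found by their *A. thaliana* match, whereas the 1997 include the 560 rows without one, so the sets are unlike. The lignin list was also chosen with earlier results of these data known. *CAD-5* and *UGT72E2* were chosen for their peaks, so the other 9 genes are counted by themselves. Of these 9 peaks, 7 (77.8%) lay downstream of the gene start and 4 (44.4%) in an exon, where all peaks with a held row had 69.9% and 33.6%. In each of the 3 single-library lists, 8 of the 9 were called (88.9%), where all peaks with a held row had 72.4%. The exception was the match of *MYB63*. With so few peaks and unlike sets, nothing particular to lignin genes is read from the median or these shares.

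In the synthesis of monolignols, 2 of 18 genes had a peak. The match of *4CL5* (CARHR097130), which activates coumarate with coenzyme A, had a fold enrichment of 5.07 in exon 1 of 5. The match of *C4H* (CARHR123940), the cytochrome P450 that hydroxylates cinnamate, had 2.55 in an intron. No peak was assigned to a match of the *PAL* genes, which open the pathway, or of *HCT*, *CCoAOMT1*, *CCR1*, *F5H1* or *COMT1*, which act between these steps and CAD.

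Of the 9 members of the *CAD* family, 2 had a peak. Besides *CAD-5*, this was the match of *CAD4* (CARHR094880), whose *A. thaliana* product shares the main CAD activity of stems with CAD5. Its peak was in intron 1 of 2, with a centre 534 bp downstream of the start and a fold enrichment of 3.83 at rank 646. In the single libraries it had 4.07, 3.35 and 2.90, below *CAD-5* in each list and close to *UGT72E2*. Both *CAD* peaks thus lay inside the annotated gene, one in an exon and the other in an intron.

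Among genes of the UGT72 family and of coniferin turnover, 4 of 11 had a peak, including *UGT72E2*, which was chosen for its peak. The strongest was at the match of *BGLU46* (CARHR050510), which encodes a beta-glucosidase that hydrolyses monolignol glucosides, the products of enzymes such as UGT72E2. Its peak lay in the promoter, 1790 bp upstream of the gene start, with a fold enrichment of 7.47 at rank 35. The single libraries gave 7.39, 6.75 and 6.55. *UGT72E1* and *UGT72E3*, the nearest relatives of *UGT72E2*, had no peak in the held annotation. The match of *UGT72D1* (CARHR106980) had one 1662 bp upstream of its start with 4.73. The peak assigned to the match of *UGT72C1* (CARHR245130), with 2.65, had its centre 373 bp downstream of the start of that gene. The annotation places this peak at the transcript end of the neighbouring gene CARHR245120.

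Of the 8 genes of polymerisation, the match of *LAC4* (CARHR132660), a laccase that oxidises monolignols in the wall, had a peak in exon 5 of 6 with a fold enrichment of 5.84 at rank 123. The values in the single libraries were 5.18, 5.24 and 6.73. Of the 6 transcription factor genes, 2 had a peak, each in the last exon. The match of *MYB83* (CARHR082800), a regulator of secondary walls, had 4.07, and 4.06, 4.18 and 4.18 in the single libraries. The match of *MYB63* (CARHR072820), an activator of lignin genes, had 2.48, and 2.65 and 2.60 in the lists where it was called. It was not called in the shorter pseudoreplicate list.

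**Figure D4:**
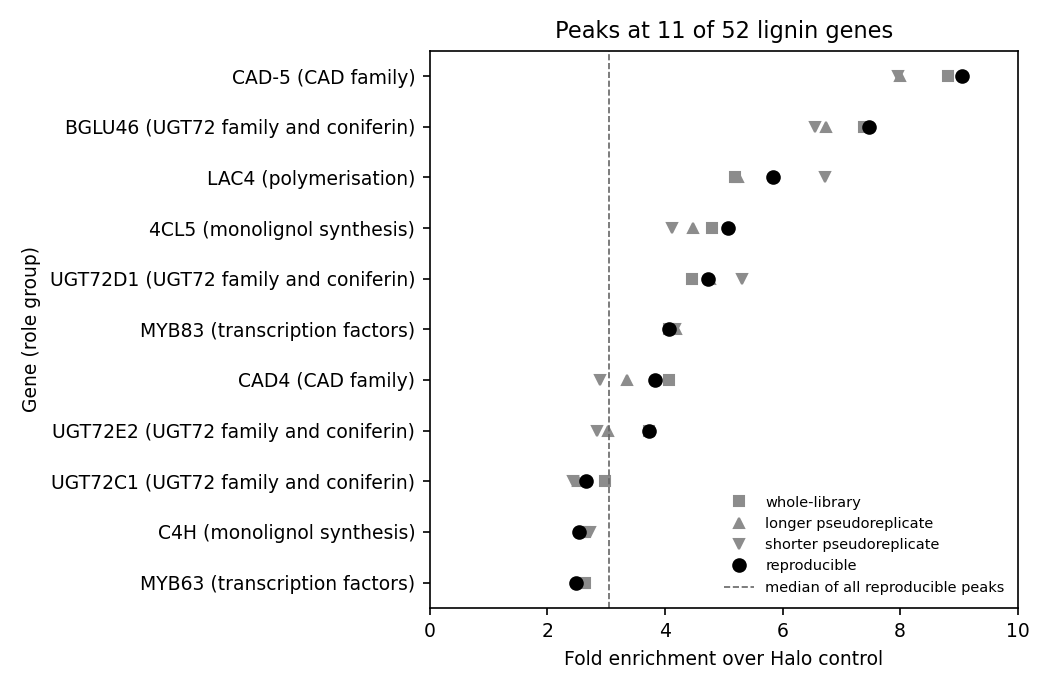
Fold enrichment over the Halo control (horizontal axis) for the 11 of 52 lignin genes with a reproducible peak, in the reproducible list (black circles) and the 3 single-library lists (grey symbols); the dashed line is the median of all 2432 reproducible peaks, 3.04. CAD-5 is highest in each list, 8 genes lie above the median, and UGT72E2 at 3.72 is the lowest of these 8.

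The peaks with the most similar values over the 3 single-library lists were sought among the other 1518 peaks called in each of them. The measure was the distance between log2 fold enrichments. For *CAD-5*, the closest was a peak in exon 1 of CARHR126740, the match of AT2G32800, with 8.87, 8.19 and 7.91 in the whole-library, longer and shorter lists, at a distance of 0.037. Then came CARHR089270 at 0.093, CARHR039470 and CARHR293050 (*KRP1*, which encodes an inhibitor of the cell cycle), both at 0.18, and CARHR273640 at 0.22. The last is also in exon 4 of its gene. For *UGT72E2*, the closest were CARHR232760 at 0.055, CARHR227980 at 0.058, CARHR119320 and CARHR075740 at 0.059 and CARHR185570 at 0.072. All 5 had fold enrichments of 3.34 to 3.87 in the reproducible list, and they lay in exons, a promoter, a transcript end and an intergenic stretch. No other listed lignin gene was found among these 10. Besides *CAD-5* and *UGT72E2*, only 8 listed lignin genes were represented in the 1518 peaks searched. So few would seldom appear among 10 peaks, and nothing is read from their absence. CARHR089270 and CARHR119320 have no *A. thaliana* match named, so they could not be checked against the list. Among the 24 of 28 high-confidence targets with a held peak, *CAD-5* ranked 1 and *UGT72E2* 12 by fold enrichment.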

How the data were processed

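The lists come from 3 ChCUC1 samples and 3 Halo control samples. Bowtie, MACS2 and bedtools are named in the processing notes of the submitters, and neither versions nor the build were given in the sources used. Per peak, the fold enrichment (a ratio over the Halo control), the −log10 p and the −log10 q were deposited by the authors as the caller gave them. By their names, the single-library lists were called at a p-value threshold of 0.01 after removal of duplicates. The score deposited by the authors, from 540 to 1000 in the reproducible list, was not used. There are no read counts, so the depth per library is unknown. How reads with several matches were placed is not stated, which could affect gene families such as *CAD* and *UGT72*.

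Peaks were compared by position (positions counted from 1) with NumPy 2.4.6, pandas 2.3.3 and SciPy 1.17.1 under Python 3.11.15, and plotted with matplotlib 3.10.9. An overlap of at least 1 bp counted as shared; of several overlapping calls, the one with the highest −log10 p was taken. The overlap step was tested on simulated data: of 1500 peaks shared by lists of 2400 and 3300, it found 1500. Genes, *A. thaliana* matches, exons and distances from peak centre to gene start were read from the study's annotated DAP-seq peak table, held for 1997 of the 2432 reproducible peaks. A strand was accepted where rows for the same gene gave a single start within 2 bp, as for 442 of 466 genes with several rows.

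The genes and the lignin list were chosen with earlier results of these data known. Named were both genes, every listed lignin gene with a peak, the 5 peaks most alike to each gene and the nearest reproducible peak on each side. Genes at neighbouring ranks, the peak at CARHR281070, the further single-library calls near *UGT72E2*, and listed genes without a peak were named after their values had been seen. Alternatives were stricter thresholds, other definitions of overlap, ranking by p-value, subsets of peaks and genes, and each list left out in turn.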

Additional observations from a re-analysis of the deposited data

How the results depend on the processing

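No paired analysis was possible because no list has a replicate number and the Halo controls were pooled for calling. Of the values at other settings, 29 stayed within the limits set (1.5 times for a count or rank, the 95% exact binomial interval for a share), and 7 moved; counts and ranks have no direction that could reverse. All 7 concern the share of reproducible peaks called in each of the 3 single-library lists, 62.5% (60.5 to 64.4%). It was 51.3% at a −log10 p of at least 5, 14.6% at an overlap of 50% of both peaks, 58.2% with summits within 100 bp, 47.5% in the top 50% of each list and 56.4% at a q-value under 0.05, a limit chosen after seeing the data. With each list left out in turn it ranged from 62.7 to 91.3%, the highest without the shorter pseudoreplicate list. *CAD-5* and *UGT72E2* stayed in each list except at an overlap of 50%, where the narrow calls of the shorter pseudoreplicate list were lost at both. Since both were in every list, leaving one out could only give 2 of 2. A fall from 3 lists to 2 is within the limit of 1.5 times. The loss at an overlap of 50% and the lists left out therefore count among the 29. Most of the 29 are calls, summits or ranks of *CAD-5* and *UGT72E2*, values by which the genes were chosen. Several outcomes were fixed by values given above, such as the weakest −log10 p of 5.96 against the limit of 5. Nothing is therefore read from the number that stayed. The rank of *CAD-5* was 3 or 4 and that of *UGT72E2* 698 to 791. Over all listed lignin genes, the number with a peak was 8 to 11. Among the enzymes of monolignol synthesis and glucosides alone, a smaller set of genes, it was 8. The intervals cover counting error over peaks only, and depth is unknown.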
